A study of Homo sapiens with 6 samples.

Results

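The genes described here are 10 products by which luminal and apocrine mammary epithelium is recognised: PIP, MGP, AZGP1, SCGB2A1, SCGB2A2, SCGB1D2, AGR2, AGR3, ANKRD30A and LTF. They were chosen by gene symbol among the 25940 gene names on the array, and the set was selected on these same pLB and pLUM arrays as well as on the genes' known roles. Differences between the lines in these 10 genes are therefore given as descriptions without p-values, and where a call from the fit across all genes is mentioned for a member it is a description too. The study asked how 2 cell lines from 1 luminal breast cancer model, sharing an origin in T47Dco (an established human breast cancer line carrying estrogen and progesterone receptors), differ in gene expression. pLUM are CLD3+CD49f- luminal cells sorted from a T47Dco xenograft grown with estradiol (E), kept in E and exposed to 1 nM E for 72 h before collection. pLB are CLD3-CD49f+ luminobasal cells sorted from a xenograft grown with E and progesterone, then cultured under estrogen withdrawal (EWD). Both lines were passed through a further sort on CK5 before RNA extraction, and the labels do not say which CK5 fraction was hybridized. Each line comes from 1 tumor and each was profiled on 3 one-colour arrays from 3 sorts, so the spread measured is that between sorts of a line. Line and estradiol coincide in all 6 samples and cannot be told apart.

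Mammary epithelium secretes proteins of several families. PIP (prolactin-induced protein, also known as gross cystic disease fluid protein) and AZGP1 (zinc-alpha-2-glycoprotein) are classic apocrine products whose genes respond to androgen in breast cells. The secretoglobins SCGB2A2 (mammaglobin A), SCGB2A1 (mammaglobin B) and SCGB1D2 (lipophilin B) are small secreted proteins, and mammaglobin A associates with lipophilin B in secretions. MGP (matrix Gla protein) is a calcification inhibitor that needs vitamin K-dependent gamma-carboxylation, LTF (lactoferrin) binds iron in milk and mucosal fluids, AGR2 and AGR3 belong to the protein disulfide isomerase family of the endoplasmic reticulum, and ANKRD30A (NY-BR-1) is a breast differentiation antigen that is not itself a classic secreted protein.

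Arrays carried 12 probes for the 10 genes, 2 each for MGP and ANKRD30A. Levels are log2 intensities relative to the 75th percentile of the array's gene spots, so that 0 is that percentile, and levels are compared between arrays for 1 probe and never between probes. A probe was counted as measured on an array where the scanner software marked it well above background. Between 21285 and 22775 of 34127 probes were so marked per array, and the 75th percentile lay between 449 and 868.9 intensity units. Correlations between arrays were 0.984 to 0.991 within pLUM, 0.972 to 0.989 within pLB and 0.78 to 0.806 between the lines. The labels held against their markers, each taken by its brightest probe: 7 of 8 luminal markers were called lower in pLB and 6 of 6 basal markers higher, while KRT18 did not pass the 2-fold limit. CLDN3, ITGA6 (CD49f) and KRT5 (CK5) encode proteins on which the cells were sorted. The study itself reported most of the others as markers of these lines. The check is thus not an independent one. Probes of KRT8 disagreed, with log2 differences of -1.26 for the brightest and -2.57 and 1.89 for the others. Of 8 blood, vessel and stroma markers 3 were well above background on no array, and their summed level, relative to the 75th percentile, was 1.08 to 1.14 in pLUM and 0.664 to 1.25 in pLB. VWF was the 1 stroma marker called, higher in pLB, and its part in the results was not tested.

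The oligonucleotides on which presence or absence rests are shown for 4 genes, since each detects only the stretch it matches. The AGR2 and SCGB2A2 probes are listed over spans longer than their 60 bases (chr7:16837274-16839382 and chr11:62038496-62040443, hg19) and so cross an exon junction. The AZGP1 probe lies at chr7:99564719-99564778 and the AGR3 probe at chr7:16913408-16913467. The best ungapped match of the AGR2 probe to the AGR3 probe was 23 of 53 bases, with a longest shared run of 7 bases.
AGR2 probe: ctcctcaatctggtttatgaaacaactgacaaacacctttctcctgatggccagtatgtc
AGR3 probe: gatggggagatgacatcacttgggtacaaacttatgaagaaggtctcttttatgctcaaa
AZGP1 probe: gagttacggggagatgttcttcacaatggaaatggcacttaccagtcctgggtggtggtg
SCGB2A2 probe: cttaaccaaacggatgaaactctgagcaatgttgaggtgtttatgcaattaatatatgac

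The data divided the 10 genes into 4 patterns. PIP, MGP and AZGP1 were present in pLUM and at background level on all 3 pLB arrays. AGR2 was measured on all 6 arrays and was modestly lower in pLB. SCGB1D2 was well above background only on the pLB arrays, opposite to what the name luminal product says. SCGB2A1, SCGB2A2, AGR3 and ANKRD30A were not well above background on any array, and LTF was so on 1 pLUM array. Only 5 of the 10 genes were therefore measured on at least 3 arrays and entered the fit across 17670 genes. Of those 5, 3 were called lower in pLB (at least 2-fold with limma's adjusted p under 0.05), where 23.0% of all genes tested were called lower, and 1 was called higher, where the share over all genes was 22.7%. Nothing is read from these member counts, because the set was selected on this contrast and 4 of the 5 passed the filter only through the line in which they were high.

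**Figure D1:**
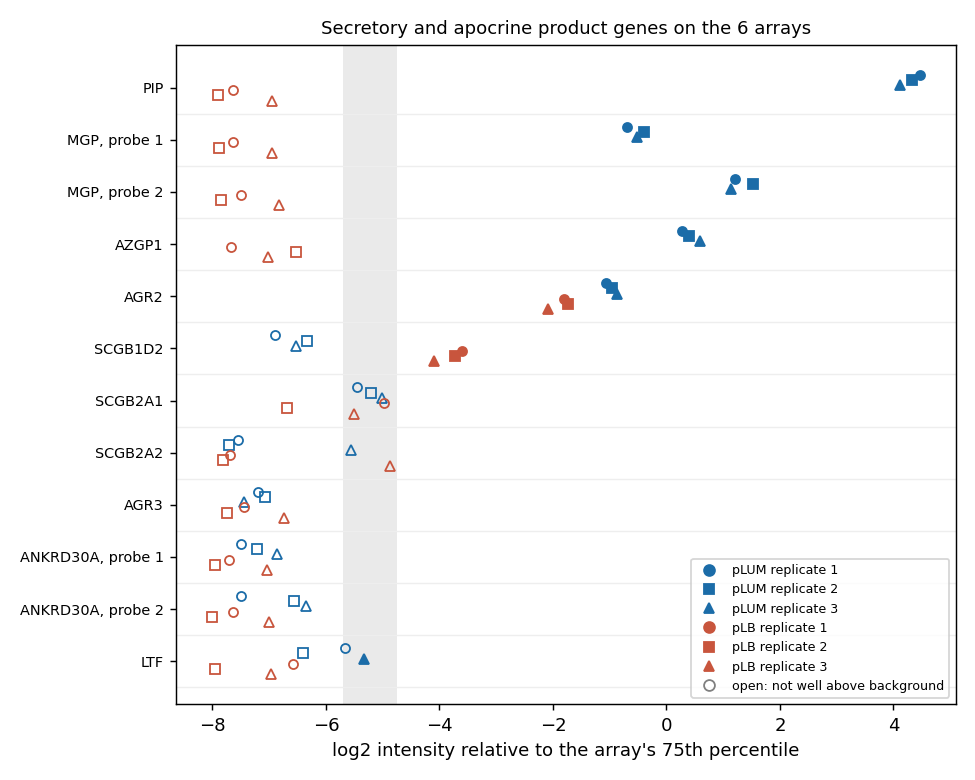
Level of each of the 12 probes (rows) on the 3 pLUM (blue) and 3 pLB (red) arrays, as log2 intensity relative to the array's 75th percentile. Open symbols are values not well above background, the grey band spans the lowest signals well above background on the 6 arrays (-5.71 to -4.75), and rows are to be read across arrays and not against each other. PIP, both MGP probes and AZGP1 sit in the open symbols on the pLB arrays, SCGB1D2 does so on the pLUM arrays, and AGR2 is filled on all 6.

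PIP was the member with the widest separation. Its level was 4.47, 4.33 and 4.12 on the pLUM arrays and -7.63, -7.91 and -6.95 on the pLB arrays. In intensity units before scaling, the pLUM spots read 10533, 11313 and 9870 and the pLB spots 4.4, 2.89 and 3.62. All 3 pLUM values lay far above all 3 pLB values, and none of the pLB values was well above background, so only a bound on the difference can be given: PIP was at least 777-fold lower in pLB. In such pooled RNA, fewer cells carrying a transcript and less of it per cell cannot be told apart. Such bounds compare the mean of the bright line with a floor for the dim one, namely what the weakest probe marked as measured gave on each dim array, or what the probe itself gave where that was more. All bounds given here hold for the processed signal, and normexp background correction, which adds 50 units before the log, gave smaller differences for such genes, for PIP a log2 difference of -7.58. The probe matches the PIP transcript NM_002652 at chr7:142836745-142836804 (hg19).

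MGP was measured by 2 neighbouring probes on chromosome 12. The brighter, at chr12:15034827-15034886, gave 1.21, 1.52 and 1.13 in pLUM and -7.49, -7.84 and -6.83 in pLB. The other, at chr12:15034940-15034999, gave -0.69, -0.40 and -0.51 in pLUM and -7.63, -7.89 and -6.95 in pLB. Both probes placed every pLUM array above every pLB array and agreed that MGP was below the limit of measurement in pLB, with a bound of at least 95.5-fold lower from the brighter probe and at least 27.1-fold lower from the other. With normexp the log2 differences were -4.60 and -3.17.

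AZGP1 followed the same course. Its level was 0.28, 0.39 and 0.60 in pLUM and -7.68, -6.53 and -7.02 in pLB, again with no overlap and no pLB array well above background. The bound was at least 52.5-fold lower in pLB, and the normexp log2 difference was -3.84. Within slide 1, which held the 3 pLUM arrays and pLB replicate 1, the mean log2 differences were -11.94 for PIP, -8.77 for the brighter MGP probe and -8.11 for AZGP1, again with every pLUM value above the pLB value. These differences include pLB values not well above background and are no measure of size.

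AGR2, which aids folding of mucins and other secreted proteins, was the only member well above background on all 6 arrays. Its level was -1.06, -0.96 and -0.87 in pLUM (mean -0.96 ± 0.10, SD, n = 3) and -1.81, -1.74 and -2.08 in pLB (mean -1.87 ± 0.18, SD, n = 3). The lines did not overlap, and pLB was 1.88-fold lower, under the 2-fold limit. Under 17 other settings the log2 difference stayed between -0.98 and -0.75, and within slide 1 it was -0.84. Its paralog AGR3, on the same chromosome arm, gave -7.20, -7.07 and -7.44 in pLUM and -7.45, -7.75 and -6.74 in pLB. No AGR3 value was well above background, so neither its level nor a difference between the lines was measurable. TXNDC12, a paralog of AGR2 and AGR3 and no member of the set, was higher in pLB by 1.16 (log2, SE 0.25, adjusted p = 0.005, limma). It read -3.34, -3.13 and -2.60 in pLUM against -1.72, -1.69 and -2.18 in pLB. With normexp background correction its difference was 0.45 and was not called.

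SCGB1D2 was the member that ran the other way. Its level was -6.90, -6.34 and -6.53 in pLUM, none of them well above background, and -3.60, -3.73 and -4.09 in pLB, all 3 well above background. The lines did not overlap, and SCGB1D2 was at least 2.97-fold higher in pLB. The signal was dim: 71.5, 52.5 and 26.4 intensity units in pLB against 3.98, 6.92 and 6.11 in pLUM. With normexp background correction, which starts from the mean and background intensities and adds 50 units, the log2 difference was -0.07 in place of 2.78. Under that correction pLUM replicate 1 read -1.84 while the other pLUM arrays read -3.14 and -3.12 and the pLB arrays -2.90, -2.80 and -2.60. Leaving pLUM replicate 1 out as well, an alternative chosen after seeing these values, gave 0.36 and no call. Whether SCGB1D2 was called higher thus depended on the background treatment.

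The remaining secretoglobins of the set were not measurable. SCGB2A2, the mammaglobin used as a breast marker, gave -7.55, -7.71 and -5.55 in pLUM and -7.69, -7.82 and -4.87 in pLB, with none well above background and overlapping lines. SCGB2A1 gave -5.46, -5.20 and -5.01 in pLUM and -4.97, -6.69 and -5.50 in pLB, also with none well above background. These values allow no statement that either gene is silent, only that any transcript was under the level this array could separate from background.

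The secretoglobins outside the set placed SCGB1D2 among its relatives. SCGB1D1 (lipophilin A), whose probe lies 51.2 kb from that of SCGB1D2, gave -5.23, -6.03 and -5.58 in pLUM and -3.20, -3.45 and -3.65 in pLB. It was thus well above background only in pLB, as SCGB1D2 was, at least 3.82-fold higher (adjusted p = 0.00022, limma), and with normexp its log2 difference was 0.10 and was not called. The probes of SCGB1D1 and SCGB1D2 matched each other at 21 of 52 bases at best, with a longest shared run of 7. SCGB1A1 (uteroglobin) was measured in both lines and differed by 0.92 (log2, SE 0.26, adjusted p = 0.017), short of 2-fold. SCGB3A1 gave 4.17, 3.61 and 3.49 in pLUM and 3.85, 3.71 and 3.78 in pLB, values that overlapped, with a log2 difference of 0.02 (SE 0.22, adjusted p = 0.94). SCGB3A2 differed by 0.71 (SE 0.24, adjusted p = 0.034) without reaching 2-fold, and SCGB1C1 and SCGB1D4 were not well above background on any array.

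**Figure D2:**
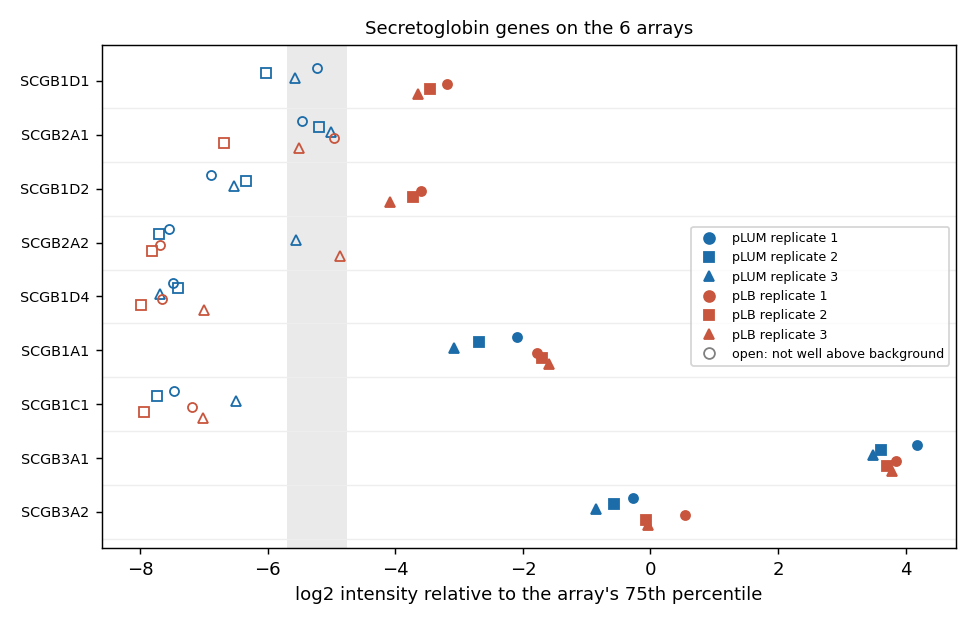
Level of 9 secretoglobin genes (rows, 1 probe each) on the 3 pLUM (blue) and 3 pLB (red) arrays, as log2 intensity relative to the array's 75th percentile, with open symbols for values not well above background. SCGB1D1 and SCGB1D2 are filled only on the pLB arrays, at -4.09 to -3.20, SCGB1A1, SCGB3A1 and SCGB3A2 are filled on all 6, and the mammaglobins SCGB2A1 and SCGB2A2 on none.

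ANKRD30A was not well above background with either probe. The first gave -7.49, -7.22 and -6.87 in pLUM and -7.71, -7.95 and -7.03 in pLB, and the other -7.49, -6.56 and -6.35 in pLUM and -7.64, -8.01 and -7.01 in pLB. Its paralog ANKRD30B, which is not a member, was on the contrary measured in pLUM at 0.01, 0.06 and -0.50 and not in pLB, where it read -7.68, -6.80 and -6.98. ANKRD30B was at least 35.5-fold lower in pLB (adjusted p = 1.8e-06, limma; normexp log2 difference -3.38), and another of its 3 probes gave a bound of at least 26.8-fold, while the third was well above background on 1 pLUM array only. The closest pair of probes of the paralogs, at chr10:37482121-37482180 for ANKRD30A and chr18:14797793-14797852 for ANKRD30B (hg19), is shown with the bases that match in capitals, 45 of 55 aligned with a longest shared run of 15.
ANKRD30A probe: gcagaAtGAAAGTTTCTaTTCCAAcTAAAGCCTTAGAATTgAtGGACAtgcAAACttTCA
ANKRD30B probe: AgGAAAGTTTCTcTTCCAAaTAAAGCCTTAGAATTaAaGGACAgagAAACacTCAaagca

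LTF was at the limit of measurement. Its level was -5.66, -6.41 and -5.33 in pLUM and -6.58, -7.95 and -6.97 in pLB. Only pLUM replicate 3 was well above background, so the gene was not tested, and although the pLUM values all lay above the pLB values no fold can be given. Among its relatives TF (transferrin) was not well above background on any array, and MFI2 (melanotransferrin) was measured on all 6 with -3.64, -3.57 and -3.64 in pLUM and -1.59, -1.57 and -1.56 in pLB, a rise of 2.04 (log2, SE 0.15, adjusted p = 2.3e-05) that was 0.94 and not called with normexp. BGLAP (osteocalcin), a Gla protein like MGP, was lower in pLB by a log2 difference of -1.02 (SE 0.18, adjusted p = 0.0021), close to the 2-fold limit and not called without pLUM replicate 1 or 2 or pLB replicate 1 or 2 (-0.98 to -0.95), with normexp (-0.91) or with quantile normalization (-0.99). Of the 11 related genes 8 were tested, 2 were called lower and 3 higher (23.0% and 22.7% over all genes), and the median log2 difference was 0.82 beside 0.04 over all genes.

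Proximal promoter sequence was available from RefSeq (GRCh38.p14) for 8 of the 10 genes, as windows of 250 bases before and 50 after the annotated start, with 3 windows for LTF. MGP and ANKRD30A had none. Windows were searched on both strands for TGTTTAC (forkhead factors), AGATAA (factors of the GATA3 family), the palindromic consensus of the estrogen response element with its spacer of 3 bases, AGAACA (androgen response hexamer), TTCNNNGAA (STAT factors) and TATAAA (the core promoter box). No matches overlapped. The androgen response hexamer was in the PIP window, 198 bases upstream of the start, and in 2 of the 3 LTF windows, against 14.8% of all 35116 windows. The STAT motif was in the PIP window at 144 bases upstream and in 1 LTF window (7.66% of all windows), the GATA3-family motif in AGR2 at 119 bases upstream (10.3%), the forkhead motif in SCGB2A2 at 102 bases upstream (3.42%) and TATAAA in AGR3 at 31 bases upstream and 1 LTF window (11.5%). That LTF match to TATAAA lay 18 bases past the start, on the opposite strand. The palindromic estrogen response element was in 0 of 10 member windows and 0.057% of all. A match is only a run of letters in these windows. The 250 bases upstream of the start are shown for the apocrine pair that was lost in pLB, PIP (chr7:143131827-143132076, plus strand) and AZGP1 (chr7:99976032-99976281, minus strand), for AGR2, which was kept (chr7:16805000-16805249, minus strand), and for SCGB1D2, which ran the other way (chr11:62241989-62242238, plus strand), with the motifs above in capitals.
PIP: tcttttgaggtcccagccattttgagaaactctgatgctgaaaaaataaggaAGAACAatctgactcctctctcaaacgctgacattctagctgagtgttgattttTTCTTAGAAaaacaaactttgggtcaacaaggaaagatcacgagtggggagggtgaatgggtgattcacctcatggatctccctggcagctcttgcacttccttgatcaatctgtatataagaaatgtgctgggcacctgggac
AZGP1: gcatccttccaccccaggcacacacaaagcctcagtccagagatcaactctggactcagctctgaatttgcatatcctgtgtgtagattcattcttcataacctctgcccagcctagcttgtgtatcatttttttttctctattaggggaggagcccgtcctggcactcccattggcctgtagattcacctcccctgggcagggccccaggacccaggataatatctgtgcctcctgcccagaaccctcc
AGR2: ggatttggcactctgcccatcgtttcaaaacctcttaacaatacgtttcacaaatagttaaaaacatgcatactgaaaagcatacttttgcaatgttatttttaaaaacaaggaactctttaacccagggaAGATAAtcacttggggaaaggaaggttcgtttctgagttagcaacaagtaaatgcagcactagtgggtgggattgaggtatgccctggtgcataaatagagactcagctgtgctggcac
SCGB1D2: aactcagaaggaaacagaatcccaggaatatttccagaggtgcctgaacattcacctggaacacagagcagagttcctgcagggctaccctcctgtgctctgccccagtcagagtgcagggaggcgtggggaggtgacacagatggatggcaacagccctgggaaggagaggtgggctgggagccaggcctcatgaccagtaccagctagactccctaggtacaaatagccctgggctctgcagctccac

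The mammaglobin genes SCGB2A1 and SCGB2A2, unmeasured in both lines, had related promoters: 186 of 300 bases of their windows were identical without gaps, whereas the SCGB1D2 window shared 73 of 300 with each. The 120 bases before the starts, at chr11:62208553-62208672 and chr11:62270038-62270157, are shown because 99 of the 120 were identical (capitals).
SCGB2A1: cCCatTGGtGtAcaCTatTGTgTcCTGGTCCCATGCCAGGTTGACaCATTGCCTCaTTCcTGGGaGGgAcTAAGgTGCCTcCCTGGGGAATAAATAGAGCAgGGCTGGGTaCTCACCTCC
SCGB2A2: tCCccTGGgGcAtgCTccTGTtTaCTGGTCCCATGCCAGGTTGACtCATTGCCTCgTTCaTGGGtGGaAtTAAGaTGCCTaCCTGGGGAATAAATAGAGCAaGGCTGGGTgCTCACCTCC

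The apocrine program around the members was examined with 18 apocrine and androgen response genes, of which 12 were tested. Of these 7 were called lower in pLB and 1 higher (23.0% and 22.7% over all genes), and the median log2 difference was -1.23 beside 0.04 over all genes. SPDEF, an ETS factor of secretory epithelium, read 3.52, 3.55 and 3.85 in pLUM and -3.45, -2.65 and -2.60 in pLB, 93.2-fold lower (log2 -6.54, SE 0.26, adjusted p = 1.9e-06, limma). SPDEF stayed well above background on every pLB array, unlike PIP and AZGP1. TMPRSS2, an androgen-induced membrane protease, and SERHL2 were each lower by a log2 difference of -1.73 (adjusted p = 0.01 and 0.0012). CLCA2 was the list gene called higher, by 2.69 (log2, SE 0.27, adjusted p = 0.00013). FKBP5, a textbook androgen target named after its value was seen, did not pass the test, with a log2 difference of 0.15 (adjusted p = 0.49). With normexp 4 genes were called lower, TMPRSS2 no longer among them, and CLCA2 was not called (0.83). Over all genes normexp called 3089 lower and 2563 higher.

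Other secretory products moved in both directions. Of 20 milk and mucosal secretion genes 11 were tested, 3 were called lower and 6 higher in pLB, where 23.0% and 22.7% of all genes were called, and the median log2 difference was 1.00 beside 0.04 over all genes. XDH, the xanthine oxidoreductase of the milk fat globule, read -4.24, -3.32 and -4.00 in pLUM and 0.67, 0.85 and 1.03 in pLB, 26-fold higher (log2 4.70, SE 0.26, adjusted p = 7.8e-06, limma). SLPI, a secreted protease inhibitor, read -3.90, -3.74 and -3.79 in pLUM and 0.48, 0.45 and -0.45 in pLB, 15.7-fold higher (log2 3.97, SE 0.27, adjusted p = 2e-05). MFGE8, a milk fat globule protein, and PLIN2, a lipid droplet coat protein, rose by 2.35 and 1.97 (log2, adjusted p = 5.4e-05 and 0.0047). The trefoil factor TFF3 fell, with 2.17, 2.47 and 2.26 in pLUM and -2.18, -3.03 and -2.93 in pLB, 32.2-fold lower (log2 -5.01, SE 0.26, adjusted p = 5.2e-06). TFF1 and CLU were lower by log2 differences of -1.64 and -1.21 (adjusted p = 0.004 and 0.025). The caseins CSN1S1, CSN2 and CSN3 and LALBA (alpha-lactalbumin) were not well above background on any array, so caseins and alpha-lactalbumin were not measurable in either line. With normexp only 2 genes, XDH and SLPI, were called higher, where 2563 genes were called higher over all. CLU was not called without pLUM replicate 2 (-1.27) or 3 (-0.97) or pLB replicate 3 (-0.83), nor with slide as a block (-0.67), a replicate block or the methods' t-test (both -1.21).

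**Figure D3:**
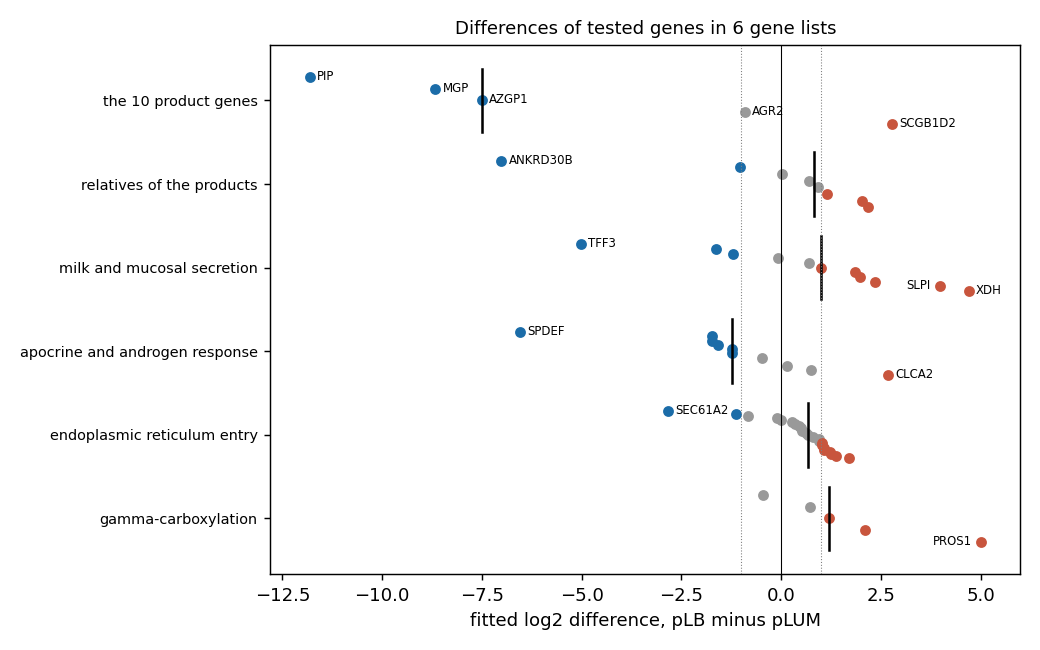
Fitted log2 difference (pLB minus pLUM) of tested genes among the 10 product genes and 5 lists around them. Blue points were called lower in pLB, red points higher and grey points neither, black bars are list medians and dotted lines mark 2-fold. PIP, MGP, AZGP1, ANKRD30B, SPDEF and TFF3 form the far left, while XDH, PROS1 and SLPI lie furthest right; differences of genes below background in a line are not bounds.

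Entry of secretory proteins into the endoplasmic reticulum was represented by 24 genes, of which 23 were tested, 8 were called higher in pLB and 2 lower (22.7% and 23.0% over all genes), with a median log2 difference of 0.68 beside 0.04 over all genes. SRPR, the signal recognition particle receptor, rose by 1.70 (log2, SE 0.22, adjusted p = 0.00039, limma), and SEC61A1, the channel subunit, by 1.38 (SE 0.22, adjusted p = 0.0011). SRP72 and SRP14, both signal recognition particle proteins, rose by 1.25 and 1.22 (adjusted p = 0.00059 and 0.00027). SEC61A2, the alternative channel subunit, fell with a log2 difference of -2.84 (SE 0.45, adjusted p = 0.0011), and SRP9 was called lower with -1.14 (SE 0.20, adjusted p = 0.0021). Probes disagreed for SRP72, whose other probe gave -0.79, and for SRP9, whose other probes gave -0.05 and -0.19. Among genes not called, SSR1 probes gave -1.60, 0.63 and 1.88, and SRP19 probes -1.21 and 0.49. With quantile normalization the number called higher was 4, where 3894 genes were called higher over all.

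Carboxylation of MGP requires GGCX, the carboxylase, and VKORC1, which recycles vitamin K. All 5 genes of this list were tested, none was called lower and 3 were called higher in pLB (23.0% and 22.7% over all genes), where MGP itself was below the limit of measurement. GGCX differed by 0.73 (log2, SE 0.26, adjusted p = 0.041), under 2-fold. VKORC1L1 rose by 2.11 (SE 0.22, adjusted p = 0.00014), and VKORC1 by 1.19 (SE 0.24, adjusted p = 0.004) with its brightest probe, while another probe gave -1.36 and the mean over its tested probes was -0.08. PROS1 (protein S), another Gla protein, read -7.56, -7.74 and -6.72 in pLUM, none well above background, and -1.79, -2.43 and -2.81 in pLB, at least 8.19-fold higher (adjusted p = 2.3e-05). The 2 PROS1 probes agreed in direction, and with normexp the log2 difference was 1.08 and was not called.

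The genes flanking each member were compared to see whether neighbours moved with it, taking the 3 nearest tested genes on each side by probe position in hg19, other members left out, 42 genes in all. Of these 15 were called lower in pLB and 5 higher, where the shares over all genes were 23.0% and 22.7%, with a median log2 difference of -0.42 beside 0.04 over all genes. Called neighbours lay in both directions around MGP, AZGP1, AGR2, AGR3, ANKRD30A and the secretoglobins. Around PIP and LTF they were only lower in pLB, and around LTF that was ALS2CL alone (-1.39, adjusted p = 0.0021, limma). The only neighbour called higher was CYP3A4 around AZGP1 and SCGB1D1 around the secretoglobins, and neither was called with normexp. AGR2 and AGR3 had the same neighbours, as had the secretoglobins of the set. Around PIP, the calcium channel gene TRPV6, 267.5 kb before it, fell with a log2 difference of -4.06 (SE 0.18, adjusted p = 2.7e-06, limma). TRPV5 (-1.01, adjusted p = 0.013) and TMEM139 (-1.92, adjusted p = 7.2e-05) were also called lower. OR6W1P (0.33), 77.1 kb before PIP and named after its value was seen, GSTK1 (-0.75) and CASP2 (0.10) were not called. Around MGP, ARHGDIB at 60.2 kb rose by 4.42 (SE 0.17, adjusted p = 1.6e-06) and RERG (a Ras-related growth inhibitor) at 226.1 kb fell with -3.47 (SE 0.17, adjusted p = 4.3e-06). C12orf60 at 58.3 kb (-2.09, adjusted p = 0.0011), H2AFJ (-1.29, adjusted p = 0.00076) and EPS8 (-1.47, adjusted p = 0.00026) were also called lower near MGP. Around AZGP1, its pseudogene AZGP1P1, 16.4 kb away, was at least 2.04-fold lower in pLB (adjusted p = 0.0035), with a normexp log2 difference of -0.82. On the same side an unnamed probe 18.7 kb from AZGP1 (A_24_P49267) was at least 3.19-fold lower (adjusted p = 2.3e-05). Whether it reads the same transcript as the AZGP1P1 probe was not tested. That probe matched the AZGP1 probe at 23 of 53 bases at best, with a longest shared run of 5. CYP3A4, 210.1 kb on the other side, was at least 2.38-fold higher in pLB (adjusted p = 0.00056), with a normexp difference of -0.12. Nearer on that side, TRIM4 at 76.0 kb was called lower (-1.91, adjusted p = 0.00012), while its other probe gave 0.88. Around AGR2 and AGR3, AHR (the aryl hydrocarbon receptor), 545.5 kb from AGR2, rose by 4.10 (SE 0.22, adjusted p = 6.7e-06). On the other side and nearer to AGR2, TSPAN13 at 18.6 kb (-1.07, adjusted p = 0.00056) and ANKMY2 at 197.2 kb (-1.55, adjusted p = 0.00011) were called lower. Around SCGB1D2 the neighbour called higher was SCGB1D1, given above, and ASRGL1 at 147.8 kb was called lower (-1.38, adjusted p = 0.041). The nearest tested genes of ANKRD30A were distant. Among them FZD8, a Wnt receptor, was well above background only in pLB, at least 109-fold higher (adjusted p = 1.7e-06), with a normexp log2 difference of 4.23. ZNF25 fell with a log2 difference of -1.83 (adjusted p = 0.00084).

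**Figure D4:**
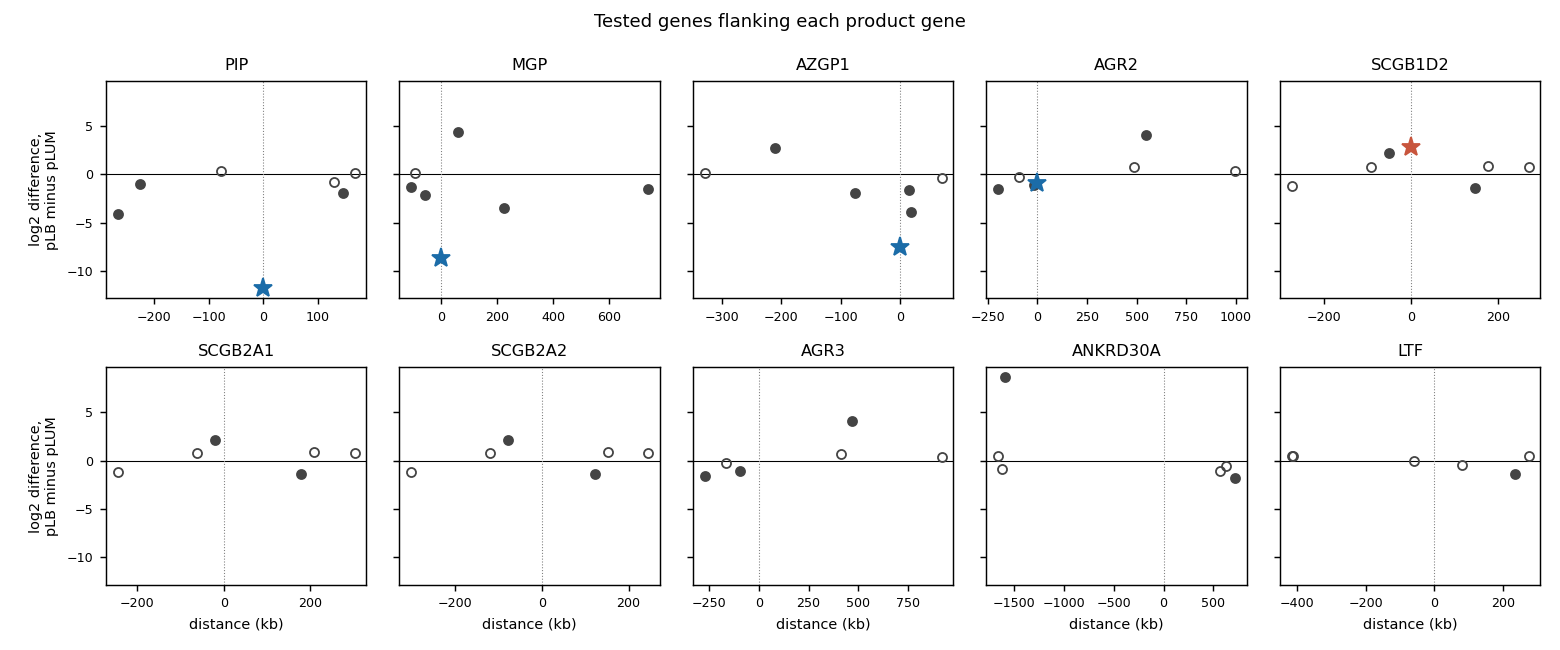
Log2 difference (pLB minus pLUM) of the 3 nearest tested genes outside the set on each side of each product gene against distance in kb between probe starts, with filled points for called genes, open points for others and a star for the product gene where it was tested. Filled points lie on both sides of 0 around MGP, AZGP1, AGR2, AGR3, ANKRD30A and the secretoglobins, and only below 0 around PIP and LTF. Those above 0 around AZGP1 (CYP3A4) and the secretoglobins (SCGB1D1) were not called with normexp. No neighbour within the PIP panel approaches the PIP star at -11.81.

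The mean profile of the 5 tested members over the 6 arrays was most like those of LOC284998, C17orf28, ACTL8, ING4 and CCL3, with Pearson r of 0.9996 to 0.9999 over 6 arrays. These r values describe the step between the lines: 954 of the 17661 genes compared had r above 0.99. C17orf28 read 4.24, 4.33 and 4.25 in pLUM and -0.05, 0.01 and 0.07 in pLB, and ACTL8 read 1.13, 1.20 and 1.23 in pLUM and -3.02, -2.89 and -2.86 in pLB. LOC284998, with the highest r, read -1.57, -1.33 and -1.51 in pLUM and -6.74, -6.56 and -6.45 in pLB.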

How the data were processed

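RNA of 3 pLUM and 3 pLB sorts had been labelled with Cy3 and hybridized to Agilent 4x44K arrays. The deposited files are scanner output of Feature Extraction 10.10.1.1 (protocol GE1_1010_Sep10, hg19 probe positions). The deposited processed signal, a background-subtracted intensity that the authors did not normalize between arrays in these files, was used together with the deposited mean and background intensity for normexp. The deposited spot flags, coded 0 or 1, gave outliers and spots well above background. The submitters' notes name Partek, and its normalized values were not used here.

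Control and outlier-flagged spots were left out, spots of a probe averaged after log2, and each array's 75th percentile subtracted. Probes marked well above background on 3 or more of the 6 arrays were tested with limma 3.58.1 (R 4.3.3, lmFit and eBayes), adjusted by Benjamini-Hochberg over 23105 probes. A gene was its brightest probe, 17670 in all, called at 2-fold and adjusted p under 0.05. The script was tested on simulated data. The number of arrays limits precision. Slide 1 held the 3 pLUM arrays and pLB replicate 1, slide 2 the other pLB arrays. Gene names came from the files and promoter windows from RefSeq (GRCh38.p14). All probe positions are those of the files. Named genes were all members, the called list genes of largest change (up to 4 each way), SPDEF, GGCX and TXNDC12, up to 8 called flanking genes and the 5 most similar profiles, except for an item that is not reported here. TRPV5, TMEM139, GSTK1, CASP2, ZNF25, AZGP1P1, SSR1 and SRP19 were also named, outside this rule. So were TSPAN13, ANKMY2, C12orf60, H2AFJ, EPS8, TRIM4, ASRGL1 and ALS2CL. LYZ and UGT2B28 had no probe of that name. The members and lists were chosen with earlier results of these data known. Alternatives were normexp, quantile or median scaling, other filters, the mean of a gene's probes, no fold limit, the methods' t-test, slide or replicate number as a block, and leaving out each array.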

Additional observations from a re-analysis of the deposited data

How the results depend on the processing

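The filter requiring all 6 arrays keeps no gene that was measured in only 1 line, leaving 0 members called lower and 0 higher, 0 apocrine genes higher and 1 relative lower. Over all genes that filter left 3026 called lower and 3041 higher, in place of 4068 and 4016. Normexp called 0 members, 0 relatives and 0 apocrine genes higher, 1 relative and 4 apocrine genes lower, 2 milk and mucosal genes higher, 13 flanking genes and 2563 genes higher in place of 4016. It called 3089 genes lower in place of 4068. With pLUM replicate 1 left out as well (chosen after seeing the data), the counts were 0 members higher, 1 relative higher and 1 lower, 2 milk and mucosal genes higher, 4 apocrine genes lower and 12 flanking genes. Over all genes 2794 were then called lower and 2790 higher. Quantile normalization gave 1 relative lower and 4 reticulum entry genes higher, with 4168 genes lower and 3894 higher over all. No fold limit gave 5 relatives, 2 apocrine and 13 reticulum entry genes higher, while the count over all genes also rose, to 5729 higher in place of 4016. The mean of a gene's probes gave 1 reticulum entry gene lower, with 4055 genes lower over all. Leaving out 1 array at a time gave 1 to 2 relatives called lower, with 3827 to 4536 genes lower over all. Directions reversed for SCGB1D2 (-0.07) and CYP3A4 (-0.12) with normexp and for VKORC1 (-0.08) with the mean of its probes. Of 39 genes named by rule, 17 changed call under at least 1 of 17 alternatives. In the 250 upstream bases alone 1 member window held TATAAA.

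Samples with the same replicate number did not deviate together (correlations of deviations -0.265 to -0.095, and 0 of 6 arrays best matched by their own number), so the numbers are only names. With a replicate block 3 members were called lower and 1 higher, and 4008 genes lower and 3970 higher. Slide and line overlap except for pLB replicate 1, so the slide block rests on that array.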
